A study of Mus musculus with 15 samples.

Results

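Cd4, Cd8a, Cd8b1, Runx3 and Zbtb7b encode the T cell coreceptors and the pair of transcription factors that set which coreceptor a T cell keeps. They were chosen by gene symbol, and 6 probes carried these 5 symbols among 25697 probes, of which 23978 named 16593 genes. The arrays, Illumina bead arrays, measured RNA of mouse thymocytes at 4 weeks of age that were enriched for low HSA, a surface protein that thymocytes lose as they mature. The study asked what loss of Dicer, the nuclease that cuts microRNA precursors, does in invariant natural killer T (iNKT) cells and in conventional T cells. All groups came from Dicer lox/lox mice: those called WT were CD4-Cre -/- and those called KO were CD4-Cre +/-, so the controls carried the floxed allele without Cre. iNKT cells were sorted as TCRβ int and positive for the CD1d tetramer, T cells as TCRβ + and negative for it. WT iNKT cells were divided into stage 1-2 (NK1.1 -, CD44 high or low) and stage 3 (NK1.1 +, CD44 high), whereas KO iNKT cells were not divided by stage. Each of the 5 groups (WT iNKT stage 1-2, WT iNKT stage 3, KO iNKT, WT T and KO T) had 3 arrays. The labels do not say whether the 3 came from separate mice, so p-values measure the spread between arrays. Neither kind of cell was sorted by CD4 or CD8, so each value is an average over cells with different coreceptors. In such bulk RNA, fewer cells of a type and less RNA per cell cannot be told apart.

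CD4 and CD8 are surface proteins that bind MHC class II and class I molecules beside the T cell receptor and bring the kinase Lck to it. CD4 acts as a single chain, encoded by Cd4. CD8 is a pair of chains, encoded by Cd8a and Cd8b1, and on conventional T cells it is mostly the heterodimer of both. Thymocytes pass through a double-positive state with both coreceptors, the stage at which Cre driven by the CD4 promoter starts to act, and then keep one. Zbtb7b encodes ThPOK, which holds cells in the CD4 lineage, and Runx3 silences Cd4 and supports Cd8 in the CD8 lineage, with each factor restraining the other. Mouse iNKT cells also come from double-positive thymocytes and are known as CD4-positive or lacking both coreceptors, and ThPOK is known to keep CD8 low in them.

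Since Runx factors bind the regulatory elements of this gene group, the promoters of its members were read for the Runx core, ACCACA on one strand and TGTGGT on the other. RefSeq windows (build GRCm38.p6) of 300 bases, from 250 before to 50 after a transcript start, were at hand for 3 of the 5 genes: Cd8a with 1 start, Runx3 with 2 and Zbtb7b with 2. The upstream Runx3 window held the core in 2 places and the downstream Zbtb7b window in 1, and both are shown, 5′ to 3′ along the gene, with the matches in capitals. The first lies at chr4:135120395-135120694 on the plus strand and the other at chr3:89387622-89387921 on the minus strand.
Runx3, upstream start: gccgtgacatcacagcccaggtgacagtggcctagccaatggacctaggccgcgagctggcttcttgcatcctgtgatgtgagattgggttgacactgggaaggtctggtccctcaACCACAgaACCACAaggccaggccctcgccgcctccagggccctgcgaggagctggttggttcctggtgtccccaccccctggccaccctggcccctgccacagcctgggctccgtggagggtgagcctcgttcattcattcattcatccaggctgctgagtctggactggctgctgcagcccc
Zbtb7b, downstream start: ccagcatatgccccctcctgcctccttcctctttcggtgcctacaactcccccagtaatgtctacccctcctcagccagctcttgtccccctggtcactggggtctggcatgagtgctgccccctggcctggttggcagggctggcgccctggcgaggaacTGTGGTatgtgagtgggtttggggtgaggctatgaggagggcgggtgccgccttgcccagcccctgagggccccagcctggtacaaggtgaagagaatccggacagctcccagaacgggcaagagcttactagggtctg
These letters were not in the windows of Cd8a, of the downstream Runx3 start or of the upstream Zbtb7b start. Of all 32851 windows of this length, 5506 (16.8%) held the core on either strand and 1.81% held it at least 2 times. A match of this kind describes the letters and does not show binding.

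The median raw signal of an array was 88.3 to 124, and 29.2% to 40.8% of its probes were called detected (detection p under 0.05). Intensities below are log2 values after background correction and quantile normalization, on which an undetected member probe read between 4.25 and 5.23. The probe of Dicer1, the targeted gene, averaged 6.25 in WT stage 1-2, 7.18 in WT stage 3, 6.33 in KO iNKT, 6.44 in WT T cells and 6.38 without Dicer in T cells. It did not differ past the threshold between KO T and WT T cells (change of -0.06, limma adjusted p = 0.977) or between KO iNKT and WT stage 1-2 cells (change of 0.08, adjusted p = 0.906). It was lower in KO iNKT than in WT stage 3 cells (-0.84, adjusted p = 0.0167), and WT stage 3 was above WT stage 1-2 (0.93, adjusted p = 0.0143). Where the probe lies relative to the deleted part is not given in the sources used here, so it does not check the labels. The T cell identity list (Cd3d, Cd3e, Cd3g, Cd247, Cd5, Cd2, Trat1 and Thy1, all 8 tested) averaged between 9.22 and 11.1 on every array. Zbtb16, the defining factor of iNKT cells, had no probe under that symbol.

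The members were not equally visible on this platform. The first Cd8b1 probe (ILMN_2741169) was detected on 15 of 15 arrays, the second (ILMN_2664929) and the Cd4 probe (ILMN_1249663) on 12 of 15 each, with the 3 WT stage 3 arrays missing in both cases. The Zbtb7b probe (ILMN_2441391) was detected on 4 arrays, 2 of WT stage 3 and 2 of WT T cells. The probes of Cd8a (ILMN_2935080) and Runx3 (ILMN_2747141) were detected on 0 of 15 arrays. A gene was tested when its probe was detected on all 3 arrays of at least 1 group, which kept 6838 genes. Of the 5 members, 2 were tested, Cd4 and Cd8b1. The first Cd8b1 probe met this in all 5 groups and the Cd4 probe in the 4 groups other than WT stage 3. The coreceptor values below therefore describe Cd4 and the CD8 beta chain, and the full set named by the group of genes could not be measured.

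**Figure D1:**
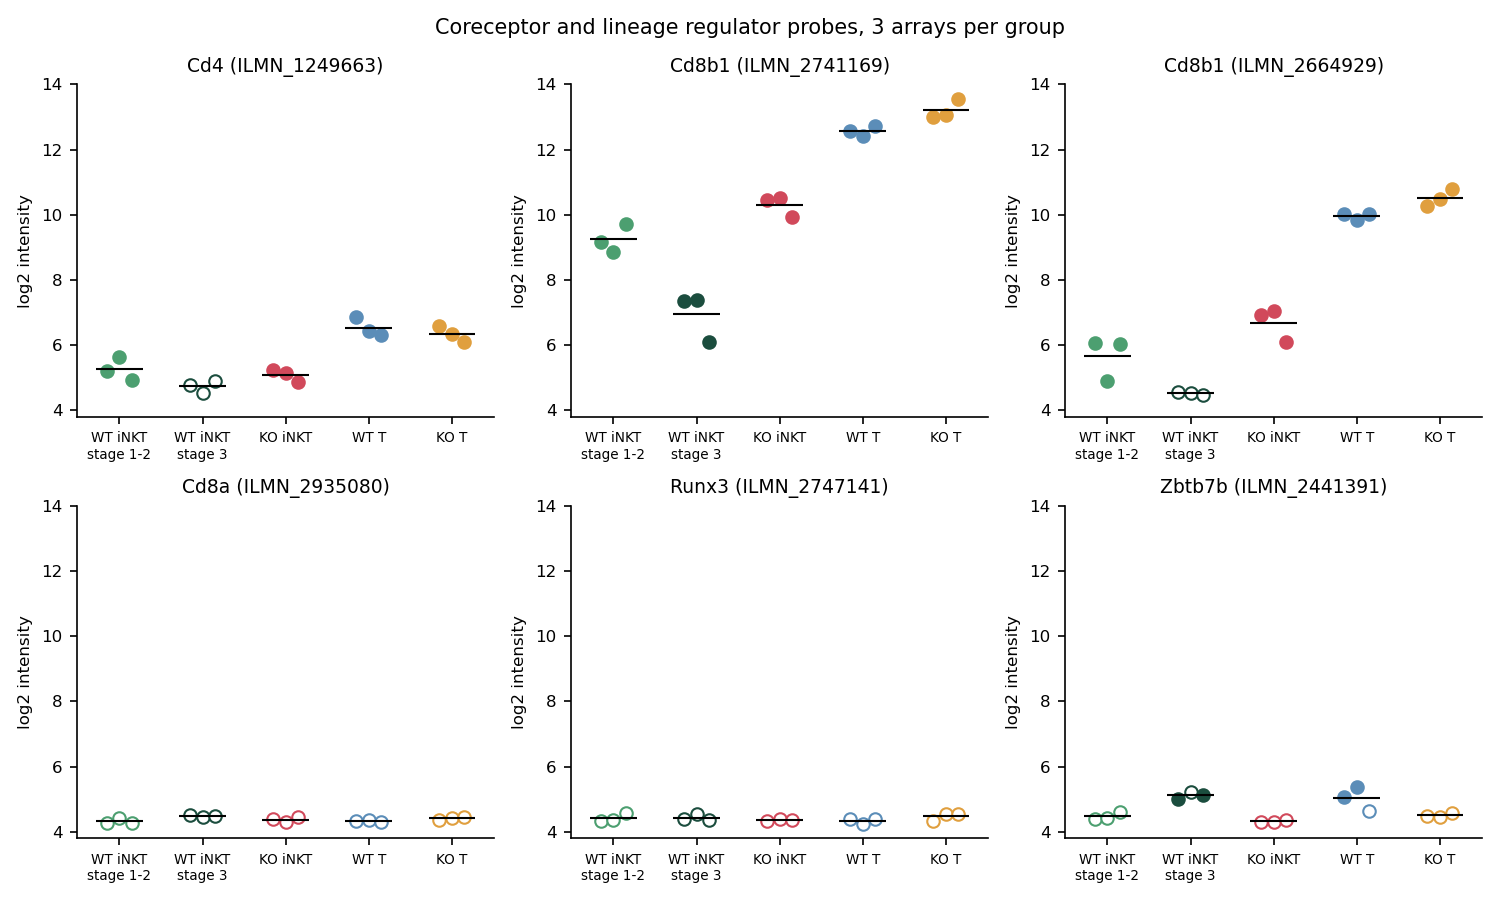
Log2 intensity (vertical axis) of the 6 member probes on each of 15 arrays, grouped along the horizontal axis by the 5 groups with 3 arrays each; filled points were detected, open points were not, and bars are group means. Cd8b1 runs from 6.11 in WT stage 3 to 13.6 in KO T cells on its first probe, while Cd8a and Runx3 stay between 4.25 and 4.59 on all arrays.

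Cd8b1, the beta chain that makes the CD8 heterodimer, had a wider range than Cd4, the other member tested. On its first probe the 3 arrays of WT stage 3 iNKT cells read 7.35, 7.38 and 6.11 (mean 6.95 ± 0.72, SD, n = 3). WT stage 1-2 cells read 9.18, 8.87 and 9.72 (9.26 ± 0.43, n = 3), and KO iNKT cells 10.45, 10.53 and 9.94 (10.31 ± 0.32, n = 3). All 9 iNKT arrays lay below all 6 T cell arrays. WT T cells read 12.58, 12.43 and 12.72 (12.58 ± 0.15, n = 3). KO T cells read 13.01, 13.07 and 13.56 (13.21 ± 0.30, n = 3). The order of the means was WT stage 3, WT stage 1-2, KO iNKT, WT T, KO T, and no neighbouring pair of groups overlapped. Of the 4 steps in that order, the one from WT stage 3 to WT stage 1-2 passed the test, the one from KO iNKT to WT T was not tested, and those from WT stage 1-2 to KO iNKT and from WT T to KO T did not pass.

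Against T cells of the same genotype, Cd8b1 was lower in iNKT cells in each of the 3 comparisons. WT stage 1-2 cells were lower than WT T cells (log2 change of -3.32 ± 0.31, SE, 95% interval -3.98 to -2.66, limma adjusted p = 5.81e-07), where 23.4% of the 6838 genes passed. WT stage 3 cells were 49.6-fold lower (log2 change of -5.63, interval -6.29 to -4.97, adjusted p = 1.21e-09), where 23.1% passed. KO iNKT cells were 7.50-fold lower than KO T cells (log2 change of -2.91, interval -3.57 to -2.25, adjusted p = 1.94e-06), where 32.9% passed. Without background correction the change of WT stage 3 was -4.80 and in the authors' values -4.84, both past the threshold. Cd4 also passed in all 3, so 2 of the 2 members tested were called in each.

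Among WT iNKT cells, Cd8b1 was lower at stage 3, the NK1.1-positive stage, than at stage 1-2. The fall was 4.96-fold (log2 change of -2.31 ± 0.31, SE, interval -2.97 to -1.65, adjusted p = 5.99e-05). KO iNKT cells were 10.3-fold above WT stage 3 cells (log2 change of 3.36, interval 2.70 to 4.02, adjusted p = 6.31e-07). Cd8b1 was the only 1 of the 2 members tested that passed in these comparisons, in which 20.1% and 29.9% of genes passed. Without background correction the changes were smaller, -1.64 and 2.57 on the log2 scale, and in the authors' values -1.70 and 2.65, and all 4 still passed. The second comparison sets an unsplit population against one sorted for NK1.1, so genotype and stage cannot be told apart in it.

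Beside WT stage 1-2 cells the KO iNKT arrays were all higher in Cd8b1, but the difference did not pass the threshold. The change was 2.07-fold (1.05 on the log2 scale, interval 0.39 to 1.71, unadjusted p = 0.00368, adjusted p = 0.0756), in a comparison where 3.01% of genes passed and neither member did. The lowest KO array read 9.94 and the highest WT stage 1-2 array 9.72. The call depended on the setting. It passed with quantile normalization without background correction (0.93, adjusted p = 0.034) and in the authors' normalized values (0.95, adjusted p = 0.0334). It also passed without WT iNKT stage 1-2 replicate 3 (1.28, adjusted p = 0.0387) and without KO iNKT replicate 3 (1.23, adjusted p = 0.0462). Median scaling over all probes gave 0.55 with an adjusted p of 0.748. The change was above 0 under each setting run.

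**Figure D2:**
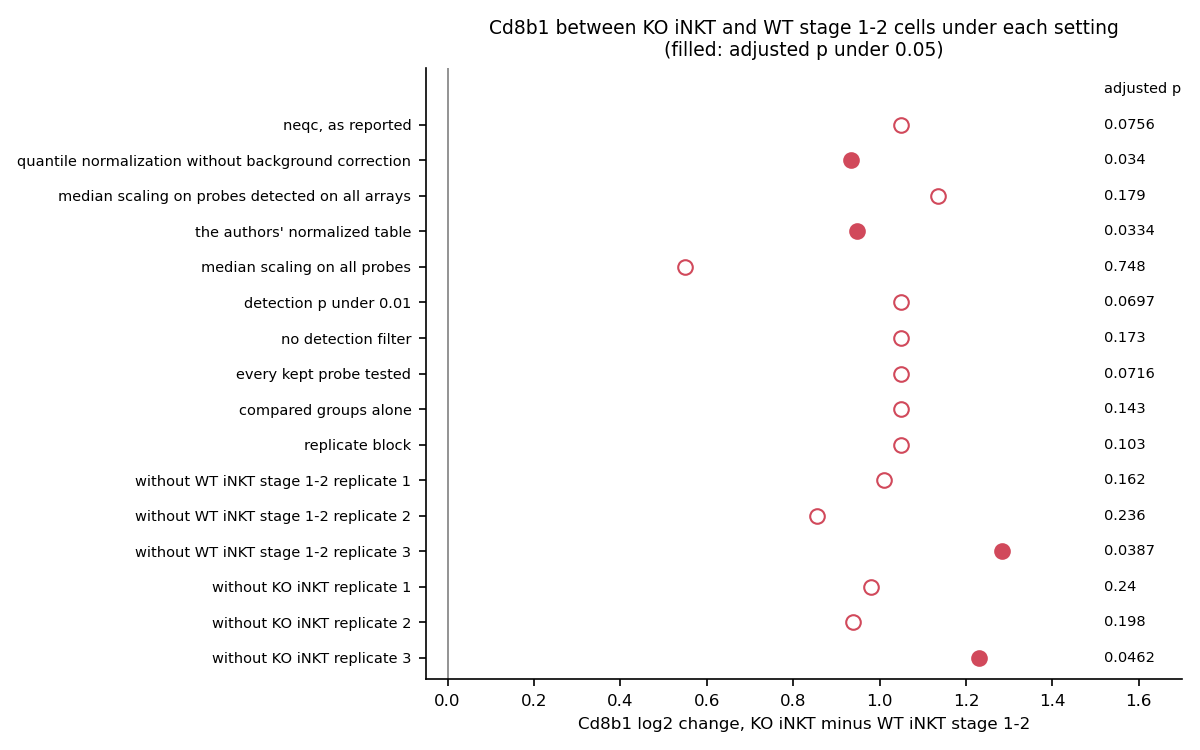
Log2 change of Cd8b1 in KO iNKT minus WT iNKT stage 1-2 cells (horizontal axis) under 16 settings, 1 per line, with the adjusted p at the right; filled points have an adjusted p under 0.05. All 16 points lie above 0, from 0.55 to 1.28, and 4 of them are filled.

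Genes of other cells moved with Cd8b1 among the iNKT arrays. Double-positive thymocytes make both coreceptors, and 5 of 8 of their listed genes were tested: Rag1, Dntt, Arpp21, Aqp11 and Cd1d1. Rag2 and Ptcra did not pass the filter. Their mean log2 intensity was 5.66, 5.51 and 6.38 in WT stage 1-2, 5.43, 5.36 and 5.23 in WT stage 3, and 6.77, 6.85 and 6.27 in KO iNKT cells, in replicate order. The array with the highest Cd8b1 was also the one with the highest value of this list for WT stage 1-2 and for KO iNKT, but not for WT stage 3, where Cd8b1 was highest in replicate 2 and the list in replicate 1. This match was not particular to the list: the B cell list given below was highest on the same arrays (10.26 and 10.68). Among KO iNKT arrays the plasmacytoid dendritic list was highest in replicate 3 (9.84) and the myeloid list in replicate 1 (11.78). On the T cell arrays, where Cd8b1 was highest, the double-positive list lay between 5.11 and 5.48. The 5 genes did not share 1 pattern. Dntt, the terminal transferase of receptor rearrangement, averaged 6.65, 4.61 and 7.39 in the 3 iNKT groups in that order and 4.49 and 5.32 in WT and KO T cells. Arpp21 averaged 5.61, 4.60 and 6.91 in the iNKT groups and 4.42 and 4.59 in T cells, and Aqp11 5.72, 5.66 and 6.67 against 4.94 and 4.75. Rag1, the recombinase gene, averaged 4.60, 5.21 and 5.395 in the iNKT groups and 5.01 and 4.89 in T cells. Cd1d1, the gene of the molecule that presents lipids to iNKT cells, averaged 6.67, 6.63 and 6.78 in the iNKT groups and 6.80 and 7.13 in T cells. Among iNKT groups Dntt and Arpp21 thus read lowest in WT stage 3, where both were undetected on all 3 arrays. Rag1 read lowest in WT stage 1-2, where it was detected on 1 array, and Cd1d1 varied little. Dntt and Arpp21 were also undetected on all WT T arrays, and Arpp21 on all KO T arrays, so these readings are background. Arpp21 and Rag1 passed the filter through KO iNKT alone, the group where both were highest.

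The means of non-T cell lists were also lowest in WT stage 3 among the iNKT groups. They were low on the T cell arrays, where Cd8b1 was highest. The plasmacytoid dendritic cell list (7 of 8 tested) ranged from 7.66 to 8.74 in WT stage 1-2, 4.81 to 5.92 in WT stage 3 and 9.31 to 9.84 in KO iNKT cells, against 5.005 to 5.23 on T cell arrays. The myeloid list (11 of 14 tested) ranged from 9.46 to 10.02, 5.77 to 7.23 and 9.78 to 11.8 in the iNKT groups, and from 4.39 to 4.49 in T cells. Single genes departed from these means. Fcer1g, of the myeloid list, averaged 8.92, 9.96 and 10.42 in the iNKT groups in that order. Bst2, of the plasmacytoid dendritic list, averaged 7.28, 5.80 and 8.35 there, and 7.68 and 6.49 in WT and KO T cells. The B cell list (4 of 9 tested, with Cd79a, Ms4a1, Pax5 and Blnk below the filter) ranged from 8.73 to 10.3, 5.78 to 6.67 and 9.16 to 10.7, and from 4.60 to 5.12 in T cells. Its tested genes were Cd79b and the MHC class II presentation genes H2-Aa, H2-Ab1 and Cd74, so it does not read B cells alone. Cd79b averaged 7.41, 4.75 and 7.67 in the iNKT groups, and 6.12 and 5.11 in WT and KO T cells. The gamma delta T cell list (2 of 5 tested) differed from these, with 7.35 to 7.82 in WT stage 1-2, 6.04 to 6.81 in WT stage 3 and 5.57 to 6.24 in KO iNKT cells. The T cell identity list was lowest where these were highest, with 9.22 to 9.32 in KO iNKT, 9.46 to 9.95 in WT stage 1-2 and 10.4 on each WT stage 3 array. The part of any of these cells in the Cd8b1 differences among iNKT groups was not tested.

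**Figure D3:**
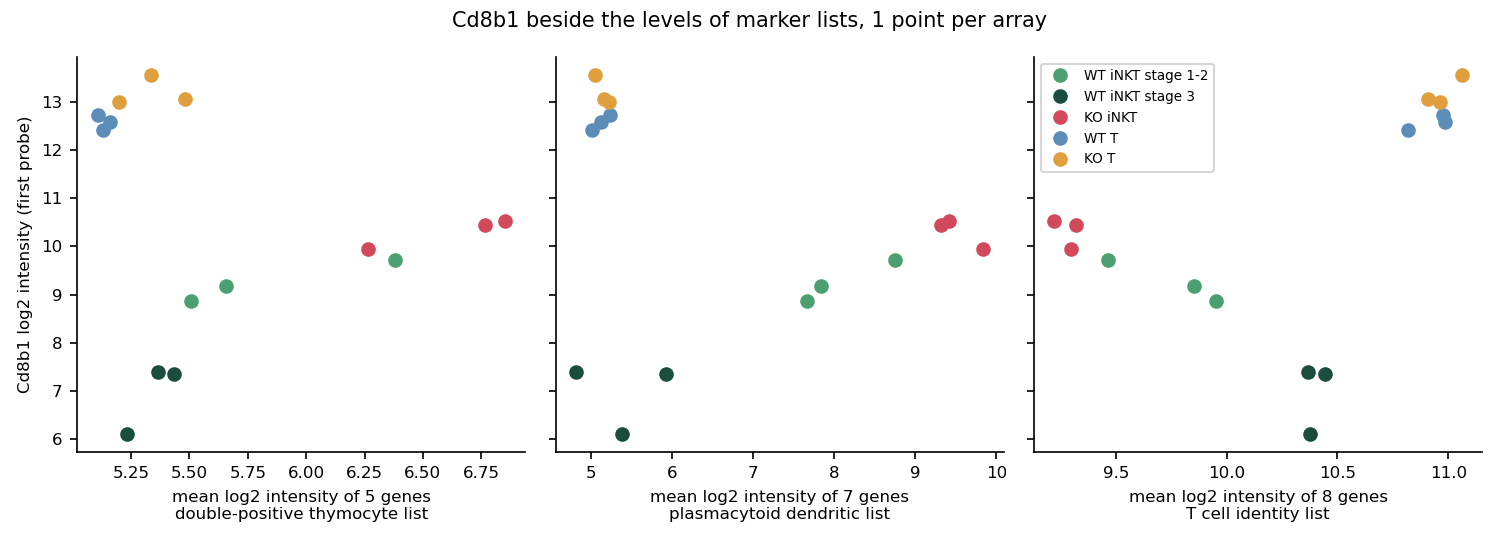
Log2 intensity of Cd8b1 on its first probe (vertical axis) against the mean log2 intensity of 3 marker lists (horizontal axes: 5 double-positive thymocyte genes, 7 plasmacytoid dendritic genes, 8 T cell identity genes), 1 point per array, coloured by group. The KO iNKT arrays lie between 9.94 and 10.53 for Cd8b1 with the highest values of the first 2 lists except for 1 array, WT stage 1-2 replicate 3, at 6.38 for the double-positive list beside 6.27 in KO iNKT replicate 3; the T cell arrays are high in Cd8b1 with low values of both lists.

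In conventional T cells, Cd8b1 without Dicer was not distinguishable from WT at the threshold. All 3 KO T arrays read above all 3 WT T arrays, with a log2 change of 0.63 (interval -0.02 to 1.29, unadjusted p = 0.058, adjusted p = 0.547). In this comparison 0.146% of genes passed and neither member did. The difference between the change without Dicer in iNKT cells, taken against stage 1-2, and that in T cells was 0.42 ± 0.44 (SE, interval -0.52 to 1.35, adjusted p = 0.838), in a contrast where 0.175% of genes passed and neither member did.

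The second Cd8b1 probe gave lower intensities and the same order of groups. It read 6.06, 4.90 and 6.04 in WT stage 1-2, 4.57, 4.54 and 4.47 in WT stage 3, and 6.93, 7.04 and 6.10 in KO iNKT cells. WT T cells read 10.04, 9.85 and 10.02, and KO T cells 10.28, 10.49 and 10.78. The WT stage 3 arrays were not well above background, so folds against them are bounds, taken from the lowest detected signal of each array. In a fit of every kept probe this one was at least 30.3-fold lower in WT stage 3 than in WT T cells (adjusted p = 8.56e-10, with 21.6% of probes passing). It was at least 1.53-fold lower than in WT stage 1-2 cells (adjusted p = 0.012, with 18.4% passing). KO iNKT cells were at least 3.12-fold above WT stage 3 cells (adjusted p = 3.41e-05, with 29.1% passing). Its change between KO iNKT and WT stage 1-2 cells was 1.02 (interval 0.40 to 1.64), and between KO T and WT T cells 0.55 (interval -0.07 to 1.17), close to the 1.05 and 0.63 of the first probe.

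**Figure D4:**
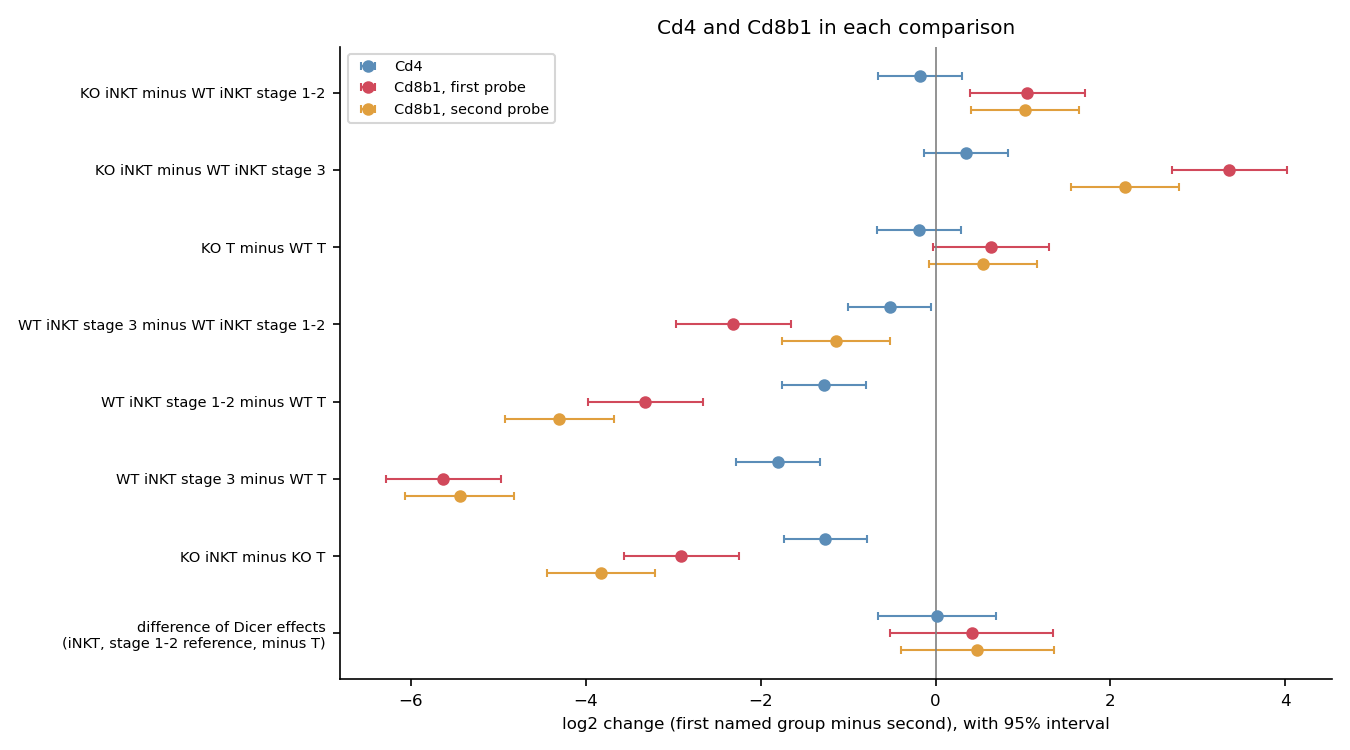
Log2 change with its 95% interval (horizontal axis) of Cd4 and of the 2 Cd8b1 probes in the 7 comparisons and in the difference of Dicer effects (vertical axis), each as first named group minus second. Both Cd8b1 probes lie on the same side of 0 in every line, and Cd4 lies below 0 in the 3 comparisons with T cells. For Cd4 and the second Cd8b1 probe, lines with WT stage 3 plot measured differences against a group undetected on all its arrays, for which the text gives bounds.

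Cd4, the coreceptor for MHC class II, varied over a narrower range than Cd8b1 and near the dim end of the scale. WT T cells read 6.87, 6.42 and 6.32 (mean 6.54 ± 0.29, SD, n = 3) and KO T cells 6.59, 6.33 and 6.11 (6.34 ± 0.24, n = 3). WT stage 1-2 cells read 5.22, 5.64 and 4.93 (5.26 ± 0.36, n = 3), KO iNKT cells 5.23, 5.14 and 4.88 (5.08 ± 0.18, n = 3), and WT stage 3 cells, undetected on all 3 arrays, 4.77, 4.55 and 4.89. The 2 T cell groups overlapped, as did KO iNKT with each WT iNKT stage, while the WT stages themselves did not. The 9 iNKT arrays lay below the 6 T cell arrays without overlap.

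Cd4 was 2.42-fold lower in WT stage 1-2 than in WT T cells (log2 change of -1.28 ± 0.23, SE, interval -1.76 to -0.80, adjusted p = 0.000533). It was at least 2.80-fold lower in WT stage 3 than in WT T cells (adjusted p = 1.43e-05) and 2.39-fold lower in KO iNKT than in KO T cells (log2 change of -1.26, adjusted p = 0.000389). The size of these differences moved with the background correction: without it the first and the third were -0.50 and -0.46 on the log2 scale, and all 3 comparisons still passed. Median scaling over the probes detected on all arrays left the first at -1.07 with an adjusted p of 0.0884 and the third at -0.69 with an adjusted p of 0.223. Median scaling over all probes left the first at -1.22 with an adjusted p of 0.136.

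Neither the loss of Dicer nor the WT stage moved Cd4 past the threshold. The log2 change was -0.17 in KO iNKT against WT stage 1-2 cells (interval -0.65 to 0.30, adjusted p = 0.739). Against WT stage 3 cells, where the probe was undetected, the bound put the KO iNKT mean 1.02-fold higher. The groups overlapped and the difference did not pass (adjusted p = 0.262), so no direction is given. The change was -0.19 in KO T against WT T cells (interval -0.67 to 0.29, adjusted p = 0.867). For the WT stages the bound put the stage 3 mean 1.16-fold below that of stage 1-2, which did not pass (unadjusted p = 0.0331, adjusted p = 0.113). The difference between the changes without Dicer in iNKT and in T cells was 0.02 (interval -0.66 to 0.69, adjusted p = 0.994). A change of 1.5-fold in at least 1 direction lies within each of these 3 intervals.

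Zbtb7b, which encodes ThPOK, read above its neighbours in WT stage 3 and WT T cells and near the floor elsewhere. WT stage 3 cells read 4.998, 5.23 and 5.14, of which 2 arrays were detected, and WT T cells 5.08, 5.38 and 4.65, again with 2 detected. WT stage 1-2 cells read 4.38, 4.43 and 4.62, KO iNKT cells 4.31, 4.30 and 4.36, and KO T cells 4.49, 4.45 and 4.57, with 0 arrays detected in these 3 groups. The WT stage 3 and WT T groups overlapped, and each lay above the other 3 groups without overlap.

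Because its probe did not pass the filter, Zbtb7b was tested in a fit of all 16593 named genes without one, an alternative that also tests many undetected genes. Its folds set the undetected group at the lowest detected signal and take the mean of the other group as measured. That mean includes an undetected array in WT stage 3 (5.23) and in WT T cells (4.65), so these folds are not strict minima. Zbtb7b was by this measure 1.22-fold lower in KO iNKT than in WT stage 3 cells (limma adjusted p = 0.0035, where 11.1% of genes passed). Leaving out any 1 of the 6 arrays kept that call, with adjusted p from 0.00706 to 0.0158, while both median scalings lost it (adjusted p = 0.882 and 0.0867). WT stage 3 was by it 1.15-fold above WT stage 1-2 (limma adjusted p = 0.0195, 6.57% passing). That call was lost in 4 of 6 fits with 1 array left out (without WT stage 1-2 replicate 1 or 2, or WT stage 3 replicate 2 or 3, adjusted p up to 0.0706) and under both median scalings (adjusted p = 0.895 and 0.274). WT stage 1-2 was by the same measure 1.08-fold below WT T (limma adjusted p = 0.0334, 8.49% passing). This stopped passing on leaving out replicate 1 or 2 of either group (adjusted p up to 0.137) and under each of 4 other normalizations. For T cells this measure put the KO T mean 1.15-fold below the WT T mean, which did not pass (limma unadjusted p = 0.00335, adjusted p = 0.346, 0.108% passing).

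Runx3, the CD8-lineage factor, read 4.25 to 4.59 and Cd8a, the alpha chain of CD8, 4.27 to 4.50 over all 15 arrays. The T cell arrays, where both Cd8b1 probes were bright, gave the same Cd8a readings as the iNKT arrays: 4.29 to 4.37 for WT T and 4.35 to 4.47 for KO T. Neither probe was detected on any array, so no level or difference of these genes is given, and these readings say nothing about whether the cells express them.

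Since the lineage factors were dim, genes that act with them were also read, from 2 lists. The upstream and partner regulators comprise factors known to act at the coreceptor loci or upstream of ThPOK and Runx3, such as Gata3, Bcl11b, Satb1, Lef1, Ets1, Runx1 and its partner Cbfb. Of 25 listed genes, 21 were on the array and 16 were tested. In WT stage 1-2 cells 4 of the 16 were lower than in WT T cells and 0 higher, where 23.4% of all genes passed, so the share of the list is near that of all genes; the median log2 change was -0.15 beside -0.04 over all genes. These were Bcl11b (-1.19, adjusted p = 0.00115), a factor of T cell commitment, Ikzf1 (Ikaros, -1.05), Lef1 (-1.88), which with its relative Tcf7 promotes Zbtb7b, and Ets1 (-0.88), which supports Runx3. In WT stage 3 cells 4 were lower than in WT T cells, Lef1 (-2.47, adjusted p = 0.000187), Ikzf1 (-0.91), Bcl11b (-0.96) and Runx1 (-0.85). The Runx1 call was lost under each of 4 other normalizations, and its probe was dim in WT stage 3 (mean 5.03, detected on 2 arrays). The interleukin 7 receptor gene Il7r (1.05) and Tcf12, an E protein gene (0.91), were higher. These 6 of 16 stand beside 23.1% of all genes, and the median was -0.05 beside -0.06 over all genes. The T cell identity list was lower than in WT T cells in 7 of 8 genes for stage 1-2 and in 4 of 8 for stage 3, and the myeloid list higher in 10 and 6 of 11.

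In KO iNKT against KO T cells 5 of the 16 were lower and 0 higher: Bcl11b (-1.76, adjusted p = 1.68e-05), Ets1 (-1.87), Lef1 (-2.23), Ikzf1 (-0.76) and Satb1 (-0.92), a genome organiser at the coreceptor loci. In that comparison 32.9% of all genes passed, near the share of the list, and the median was -0.41 beside -0.07. The Satb1 call there was lost under both median scalings and the Ikzf1 call under median scaling over all probes. The T cell identity list was lower there in 8 of 8 genes (median -1.50) and the myeloid list higher in 11 of 11. From stage 1-2 to stage 3, Ets1 (1.23) and Il7r (1.12) rose and Runx1 (-1.17, adjusted p = 0.00463), which silences Cd4 in immature thymocytes, fell, 3 of 16 beside 20.1% of all genes. The T cell identity list was higher in 3 of 8 and the myeloid list lower in 9 of 11. Against WT stage 3 cells, KO iNKT cells were lower in 4, Ets1 (-1.92, adjusted p = 7.79e-05), Il7r (-0.86), Bcl11b (-0.75) and Tcf12 (-0.87), and higher in Runx1 (0.78, adjusted p = 0.0337), 5 of 16 beside 29.9% of all genes. The T cell identity list was lower there in 7 of 8 genes (median -1.20) and the myeloid list higher in 10 of 11 (median 4.97). The part of these lists in the regulator differences was not tested. The calls of Runx1 and Tcf12 in that comparison were lost under each of 4 other normalizations. That of Il7r was lost under both median scalings and that of Bcl11b under median scaling over all probes. Against WT stage 1-2 cells 0 of the 16 passed (limma, 3 at an unadjusted p under 0.05), where 3.01% of all genes passed. Between KO T and WT T cells 0 passed (1 at an unadjusted p under 0.05), where 0.146% of all genes passed. At shares this low, 0 of 16 says little about the regulators. Gata3, which acts upstream of Zbtb7b, averaged between 7.99 and 8.36 in the 5 groups and Cbfb, the common partner of Runx factors, between 10.1 and 10.4, and neither passed in any comparison.

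The second list held 11 genes known as targets or products linked to Runx3 in CD8 T cells and type 1 lymphocytes, of which 8 were tested; Eomes, Gzmb and Cd40lg did not pass the filter. Its members also mark NK1.1-positive iNKT cells, so it does not read Runx3 alone. From stage 1-2 to stage 3, 6 of the 8 rose and 1 fell, where 20.1% of all genes passed, with a median of 2.35 beside -0.00172 over all genes. Those that rose were Tbx21 (T-bet, 2.33, adjusted p = 1.21e-06), the granule gene Nkg7 (2.93), Il2rb (2.36), Ifng (3.23), Ccl5 (3.25) and the integrin gene Itgae (0.98). Il4, which Runx3 is known to repress in type 1 T cells, fell (-1.46, adjusted p = 0.00653). Against WT stage 3, 6 of the 8 were lower in KO iNKT cells and 0 higher, where 29.9% of all genes passed (median -2.37 beside -0.01 over all genes), with Tbx21 at -2.47, Nkg7 at -2.44, Ifng at -3.45 and Il2rb at -2.30. These 2 comparisons share the WT stage 3 arrays. Tbx21 and Ifng were detected on all 3 arrays of WT stage 3 and of no other group. They thus entered the test only through the group where they are high, and their calls here are not independent of the filter.

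Against WT stage 1-2 cells, where 3.01% of all genes passed, 1 of the 8 passed in KO iNKT cells: Il4 was lower (-1.46, adjusted p = 0.0269), a call that both median scalings lost. Between KO T and WT T cells, where 0.146% of all genes passed, 0 of the 8 passed (limma, 2 at an unadjusted p under 0.05). WT stage 3 cells were higher than WT T cells in 7 of 8, where 23.1% of all genes passed. Tbx21 was at 2.64, Il4 at 3.22, Nkg7 at 1.87 and Ifng at least 11.8-fold higher. Here too Tbx21 and Ifng entered the test through WT stage 3 alone. WT stage 1-2 cells differed from WT T cells in Il4 (4.68, adjusted p = 5.14e-08) and Nkg7 (-1.06), where 23.4% of all genes passed. KO iNKT cells differed from KO T cells in Il4 (at least 16.8-fold higher) and Itgae (-0.94), where 32.9% of all genes passed. Prf1, the perforin gene, passed in none of the comparisons. Over both lists and all comparisons 48 calls were made; 45 held without background correction, 45 in the authors' values, 41 under median scaling over detected probes and 16 under median scaling over all probes, and 0 changed sign. Under the last, the counts of regulators past the threshold became 0 of 16 both between the WT stages and between WT stage 1-2 and WT T cells, and 2 of 8 Runx3-linked genes rose from stage 1-2 to stage 3. The Runx1 call from stage 1-2 to stage 3 was lost under both median scalings.

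**Figure D5:**
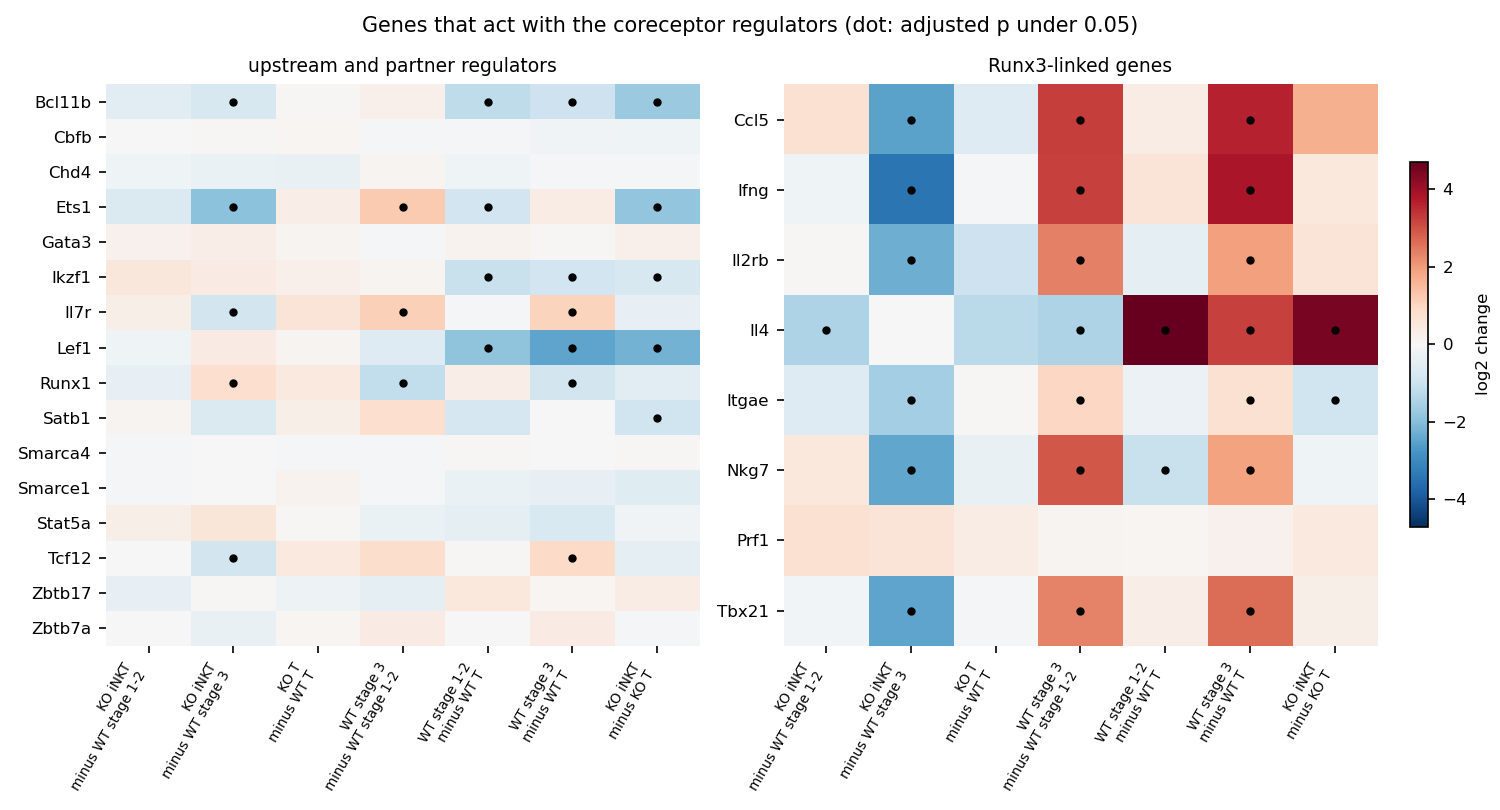
Log2 change (colour, red higher and blue lower in the first named group) of the 16 tested upstream and partner regulators and the 8 tested Runx3-linked genes (vertical axes) in 7 comparisons (horizontal axes); a dot marks an adjusted p under 0.05. The Runx3-linked genes have 7 dots from WT stage 1-2 to stage 3 and 6 in KO iNKT against WT stage 3 cells. Both comparisons use the stage 3 arrays, through which alone Tbx21 and Ifng passed the filter. No regulator has a dot in KO iNKT against WT stage 1-2 cells, where 3.01% of all genes passed.

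The genes most like each coreceptor over the 15 arrays were found by Pearson correlation of log2 intensity among the 6838 genes. The arrays share 5 groups, so these values mostly order the groups and carry no test. For Cd4 they were Emc9 (r = 0.971), a subunit of a membrane protein insertion complex, Igf2r (0.945), the mannose 6-phosphate receptor, and Nsg2 (0.944). For Cd8b1 they were Kcnn4 (r = 0.965), a calcium-activated potassium channel, Fam169b (0.953) and Ccr7 (0.949), the chemokine receptor that guides mature thymocytes to the medulla. Ccr7 averaged 4.76 in WT stage 3, 6.91 in WT stage 1-2, 7.81 in KO iNKT, then 8.63 for WT T and 9.12 for KO T, the order of Cd8b1. Kcnn4 and Fam169b follow it except that KO T lay below WT T (8.23 and 8.30 for Kcnn4, 8.82 and 8.96 for Fam169b). Emc9 averaged 4.88 in WT stage 3, 5.65 in KO iNKT, 5.88 in WT stage 1-2, 7.54 in KO T and 7.59 in WT T cells, the order of Cd4. Igf2r departs from it in that KO iNKT (7.15) lay above WT stage 1-2 (6.79), and Nsg2 in that KO T (9.88) lay above WT T (9.79).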

How the data were processed

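Thymic RNA was amplified, labelled and hybridised to Illumina mouse bead arrays, per the labels' protocols. The deposited non-normalized table holds a signal intensity and a detection p-value per probe and array, per the file headers. The normalized table is the authors' own processed intensity values, which rank the probes of each array as the raw table does. How either was summarised is not given in the sources used here. With limma 3.58.1 (R 4.3.3), intensities were background-corrected, quantile-normalized with an offset of 16 and put on the log2 scale (neqc). Symbols came from the platform annotation: 1719 of 25697 probes had none, and 16 named probes were missing from the RefSeq table. Probes detected at a p-value under 0.05 on all 3 arrays of a group were kept, with the brightest probe per gene. A mean per group was fitted over 15 arrays, and p-values were Benjamini-Hochberg adjusted over 6838 genes per contrast, with a threshold of 0.05. Folds against a group undetected on all its arrays are bounds from the lowest detected signal of each array. They compare group means, take the brighter group as measured and leave out the spread between arrays. Named genes were the members, Dicer1, up to 4 list genes past the threshold per direction by smallest adjusted p, and the 3 genes with symbols other than clone or predicted names most correlated with each tested member. Gata3, Cbfb and Prf1, and the genes that complete a count (Satb1, Ccl5 and Itgae), were chosen after their values were seen. Members and lists were chosen with earlier results of these data known. Depth does not apply to arrays; their number limits the precision. The fit was checked on simulated data. Replicate numbers were not taken to pair arrays, since the labels do not say that they do. Of 30 pairs of same-number arrays from different groups, 3 correlated above 0.1 in the deviations of their genes from the group means. Pairs with different numbers were not computed, so this count cannot settle it.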

Additional observations from a re-analysis of the deposited data

How the results depend on the processing

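Of 292 recomputed member values, 259 kept their direction and side of the threshold, 19 no longer passed, 4 newly passed and 10 changed sign. The 10 were all of Cd4 and uncalled: 0.19 in KO iNKT against WT stage 1-2 cells under median scaling on detected probes and 0.0127 without WT stage 1-2 replicate 2 (-0.3414 to 0.0127 over the arrays left out), 0.0266 in KO T against WT T cells under median scaling on all probes, and in the difference of Dicer effects -0.43 under that scaling and -0.1498 to 0.2053 over the arrays left out, 6 of them below 0. Cd8b1 kept its direction throughout. Median scaling on all probes, the added counts for Zbtb7b and those for the lists were chosen after seeing the data. Median scaling on the probes detected on all arrays put the median change of all genes in KO iNKT against KO T cells at 0.30, and on all probes at -0.66, beside -0.07 as reported; the first called 1270 genes higher and 535 lower there, the other 179 and 479, beside 1077 and 1174. Counts of genes past the threshold that moved by over 1.5 times were, under median scaling on detected probes, 15 (KO iNKT against WT stage 1-2, 206 as reported), 1085 (against WT stage 3, 2047), 3 (KO T against WT T, 10), 669 (WT stages, 1377) and 0 (difference of effects, 12). Under median scaling on all probes they were 0, 159, 0, 90, 190 (WT stage 1-2 against T, 1601), 192 (stage 3 against T, 1578), 658 (KO iNKT against KO T, 2251) and 0. Without background correction and in the authors' values KO T against WT T gave 27 and 28, and the difference of effects 5 and 5. Without a detection filter these gave 18 and 1. With the compared groups alone the counts were 14 (KO iNKT against stage 1-2), 17 (KO T against WT T) and 804 (WT stages). Leaving out single arrays gave 73 to 374 genes for KO iNKT against WT stage 1-2, 1429 to 2006 against stage 3, 0 to 7 for KO T against WT T, 983 to 1250 for the WT stages, 1110 to 1411 and 1136 to 1562 for stage 1-2 and stage 3 against T, 1725 to 2148 for KO iNKT against KO T and 0 to 84 for the difference of effects. With the replicate number as a block the member calls were the same (Cd8b1 in KO iNKT against WT stage 1-2, limma adjusted p = 0.103). Counts were then between 8 and 2174. The deviations of same-number arrays from their group means, not their intensities, correlated between -0.233 and 0.481. The causes of these shifts were not tested. Signal over background limits Cd4 and Zbtb7b and leaves Cd8a and Runx3 unmeasured.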

Other observations

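Cd4 and Cd8b1 intensities correlated over the 15 arrays (Pearson r = 0.860), which the gap between iNKT and T cells sets. The deviations of the arrays from their group means correlated at r = -0.480. The arrays share groups, and no test was made.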
